A study of Mus musculus with 6 samples.

Results

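The genes described here encode the cell's glutathione and thioredoxin defence against peroxides, the transcription factor NRF2 (gene Nfe2l2) with its inhibitor KEAP1, and enzymes that NRF2 is known to induce. The genes were found on the array by their symbols: 16 named genes plus every gene whose symbol is Gsta, Gstm, Gstp, Gstt, Gsto, Gstk, Mgst, Gpx or Prdx followed by a digit. On the array, 49 of 18193 genes with a probe set of their own met this rule, on 85 probe sets. Of these, 46 genes were bright enough to test among 12952 genes. Each gene was read from its brightest probe set unless another is named.

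Glutathione is a small thiol that glutathione peroxidases use to reduce peroxides, that glutathione S-transferases (GSTs) join to electrophilic compounds, and that glutathione reductase returns to its reduced form. Peroxiredoxins reduce peroxides in parallel with thioredoxin as electron donor, and thioredoxin reductase recharges thioredoxin. NRF2 is held low by KEAP1 until electrophiles or oxidants modify KEAP1, and it then binds antioxidant response elements in the promoters of many of these genes. The lung meets inhaled oxidants directly, and both airway and alveolar epithelium express this system.

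RNA came from alveolar type II cells, the surfactant-making cells of the lung, isolated from mice at 2 months of age. In 3 pools of RNA the mice were Insig1Δ/Δ/Insig2-/-, in which the SFTPC-rtTA and (tetO)7CMV-Cre transgenes had removed floxed Insig1 (deleted pools). In 3 other pools they were Insig1flox/flox/Insig2-/- without SpC-rtTA or without Otet-CRE, so Insig1 was kept (control pools). INSIG proteins restrain the SREBP factors that drive sterol and fatty acid synthesis, and mice of both groups lacked Insig2. Doxycycline was given from E6.5 until E12.5 of embryonic life. The Cre system was complete only in the deleted group, so its own effect and that of Insig1 loss cannot be told apart. Each array held 1 pool, and the sources used here do not say how many mice were in it. P-values therefore measure the spread between pools.

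Values are signal intensities, and a log2 fold change is the deleted pools minus the control pools, with its standard error from limma. Array medians lay between 426 and 479. Control replicate 3 stood apart on the first principal component (30.96% of variance), at 61.5, where the deleted pools lay between -24.5 and -13.2 and the other control pools at 7.64 and -7.90. Over 3 pools a group, Insig1 averaged 1482 ± 251 (SD) in deleted pools and 2862 ± 519.5 in control pools, with a log2 fold change of -0.95 ± 0.18 and an adjusted p of 0.068 (limma). Insig2 averaged 1981 ± 110 in deleted pools and 2249 ± 392 in control pools (-0.17 ± 0.16, adjusted p = 0.73, limma). The sources used here do not say whether either probe set lies in the deleted part of its gene. Of 18 type II cell markers listed, 17 had a probe set and all 17 were past the filter on dim signals. Their summed signal ran from 1054028 to 1220401 in deleted pools and from 1034241 to 1269524 in control pools, and none passed the test. The smallest p belonged to Il33 (log2 fold change 0.67, unadjusted p = 0.032, adjusted p = 0.36, limma) and Muc1 (log2 fold change 0.54, unadjusted p = 0.043, adjusted p = 0.40, limma), both higher. Of the 17 markers, 13 lay above 0 and 4 below, with a median of 0.11. Without control replicate 3, 7 lay above 0 and 10 below, with a median of -0.006. Without control replicate 2, 1 marker was higher past the adjusted threshold.

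No gene of the set passed the adjusted threshold of 0.05 by limma in either direction (0 of 46), where 0.649% of all genes did, 0.625% higher and 0.0232% lower. With unadjusted p-values, 8 of the 46 (17.4%) lay under 0.05, where 12.1% of all genes did. Sod2 and Prdx3 were the 2 higher ones, and Gsr, Gsta2, Gstm1, Gstm2, Txnrd1 and Gsto1 the 6 lower ones. The 2 higher genes were 4.35% of the set, against 6.05% of all genes, and the 6 lower genes were 13.0% of it, against 6.02% of all genes. The smallest adjusted p was 0.16, for Gsr. The groups did not overlap for 3 genes that lay higher (Sod2, Prdx3 and Prdx4) and 3 that lay lower (Gsr, Gsta2 and Gstm2), 13.0% of the set together. Over all genes tested the groups did not overlap for 17.1%, 9.2% higher and 7.9% lower.

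On the brightest probe set of each gene, differences were small throughout the set. The log2 fold changes ran from -0.63 for Srxn1 to 0.28 for Sod2, with standard errors between 0.10 and 0.34, and 44 of the 46 lay within 1.5-fold. For 45 genes the 95% interval lay inside a 2-fold change either way, Srxn1 being the exception, and for 28 it lay inside 1.5-fold. Dimmer probe sets past the filter reached further, to -0.79 for Srxn1 and 1.02 for Sod2. The median log2 fold change of the 46 genes was -0.11, where that of all genes was -0.0049, and 32 (69.6%) lay below 0, where 50.9% of all genes did. With each array set to a common median, 28 of the 46 (60.9%) lay below 0 and their median was -0.04. That setting moved the median of all genes by 0.08, to 0.07, and left 37.6% of all genes below 0.

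**Figure D1:**
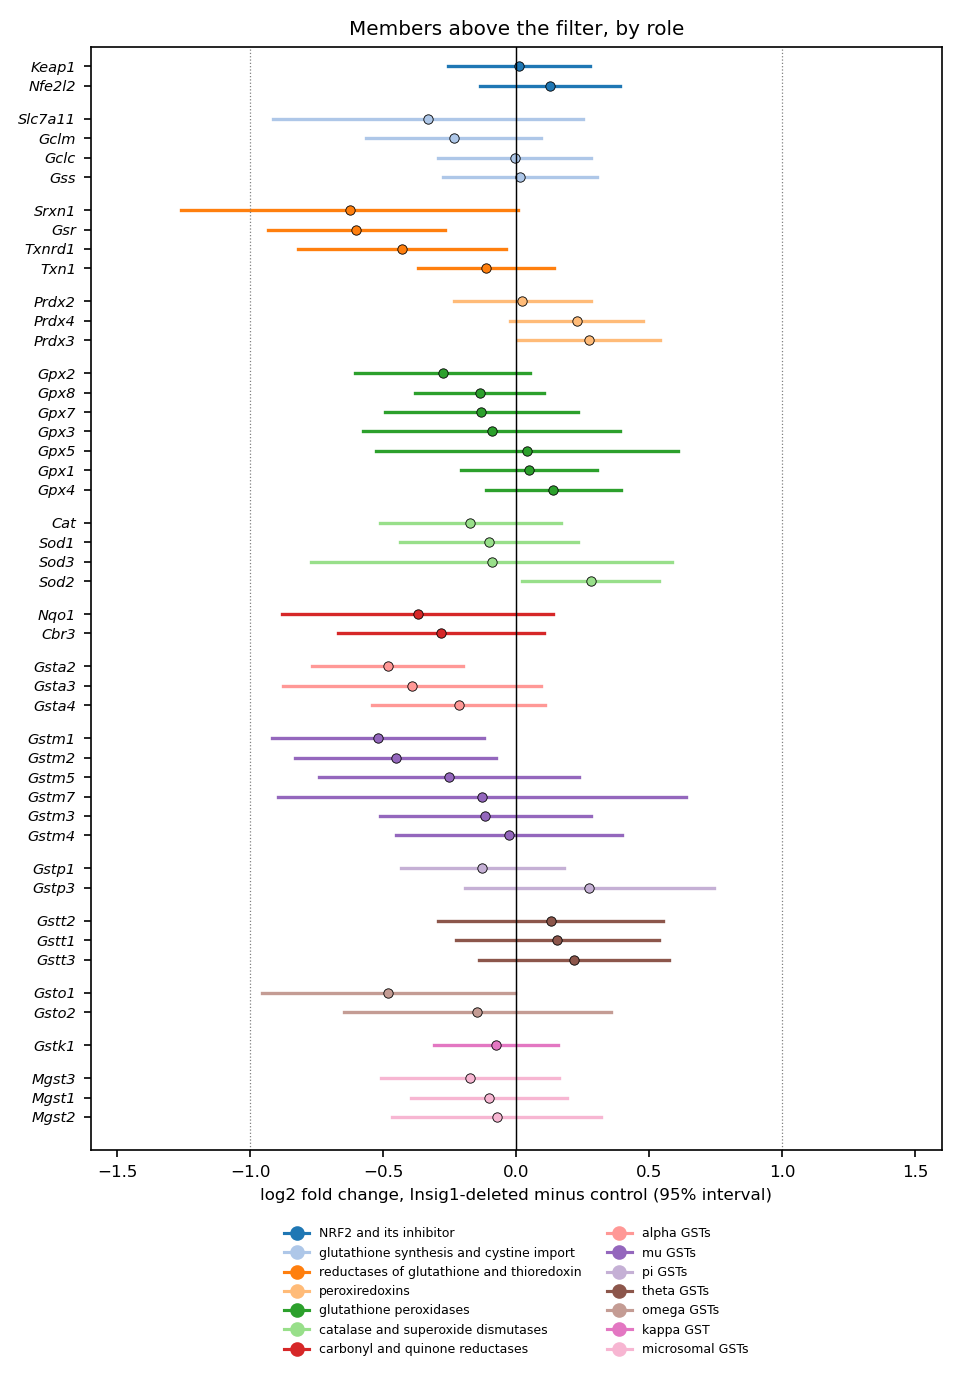
Log2 fold change (deleted minus control, horizontal axis) of the 46 genes tested, grouped by role down the vertical axis; points are limma estimates and bars their 95% intervals, from 3 pools a group. Most points lie between -0.63 and 0.28, the reductases and several GSTs lie left of 0, and the peroxiredoxins and Sod2 lie right of it.

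The extreme signals of the set came often from the same pools. Control replicate 3 had the highest signal of the 6 pools in 21 of 46 genes (45.7%), where it did so in 26.9% of all genes. Deleted pool 1 had the lowest in 19 of 46 (41.3%), where it did so in 16.2% of all genes. Without control replicate 3, 1 gene was higher and 3 were lower at an unadjusted p under 0.05, together 8.70% of the set where 11.5% of all genes were (6.8% higher and 4.69% lower). None passed the adjusted threshold by limma, where 1.33% of all genes did (1.24% higher and 0.0926% lower). The groups then did not overlap for 3 genes higher and 5 lower, where 28.0% of all genes did not overlap (15.1% higher and 13.0% lower). The median of the set was -0.06, and 35 of 46 genes lay below 0, where 51.6% of all genes did.

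Promoters of the set were searched for the core of the antioxidant response element, TGACNNNGC, on either strand, in windows from 250 bases before to 50 bases after the gene start (RefSeq, GRCm38.p6). Windows were matched for 44 of the 49 genes. The core was present in 9 of them (20.5%, Wilson 95% interval 11.2 to 34.5%), where 16.6% of all genes tested and 14.0% of all genes with a window had it. Per window of this length, 9 of 57 held it, where 12.4% of all 32851 windows did. On the strand of the gene alone, the share was 9.09% in the set and 8.83% in genes tested. The 9 genes with the core had a median log2 fold change of -0.24, and the 32 tested genes with a window but no core had -0.10. Over all genes tested the medians were 0.01 with the core (1732 genes) and -0.01 without it (8697 genes). The matches in Txnrd1, Gclm, Gsta3 and Nfe2l2 are shown to set the motif beside genes that represent recycling, synthesis, conjugation and the regulator. Each is read 5′ to 3′ on the strand of its gene, and capitals mark the core, which reads as GCNNNGTCA where it lies on the other strand. The Txnrd1 match lies at -92 to -84 from the gene start, on the other strand, in chr10:82859074-82859162 (plus strand).
Txnrd1: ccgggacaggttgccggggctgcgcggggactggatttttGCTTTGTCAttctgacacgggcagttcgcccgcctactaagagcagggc
The Gclm match lies at -134 to -126, on the other strand, in chr3:122245383-122245471 (plus strand).
Gclm: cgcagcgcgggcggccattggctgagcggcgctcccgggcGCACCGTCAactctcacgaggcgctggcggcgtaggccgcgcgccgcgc
The Gsta3 match lies at -121 to -113, on the strand of the gene, in chr1:21240424-21240512 (plus strand).
Gsta3: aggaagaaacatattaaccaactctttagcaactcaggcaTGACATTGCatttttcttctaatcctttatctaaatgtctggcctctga
The Nfe2l2 match lies at -240 to -232, on the strand of the gene, in chr2:75704855-75704913 (minus strand).
Nfe2l2: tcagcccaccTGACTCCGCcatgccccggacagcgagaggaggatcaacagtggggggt
A match is a stretch of letters and not a measured binding site.

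The regulator and its inhibitor did not pass the test. Nfe2l2 had signals of 25592, 27276 and 32161 in the deleted pools, against 25740 (control 1), 26990 (control 2) and 24767 (control 3). Deleted pools 2 and 3 lay above all controls and deleted pool 1 lay among them (log2 0.13 ± 0.12, 95% interval -0.14 to 0.39, adjusted p = 0.73, limma). Keap1 averaged 4116.5 ± 335 in deleted pools and 4085 ± 286 in control pools, a difference of 0.01 ± 0.12.

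Genes of glutathione synthesis also showed no call. Gclc, the catalytic subunit of glutamate-cysteine ligase, had 39002, 41514 and 39671 in the deleted pools, against 34572, 46582 and 40401 in the control pools. All 3 deleted pools lay inside the range of the controls (log2 -0.01 ± 0.13, interval -0.29 to 0.28). Gclm, the modifier subunit, averaged 4490.5 ± 224 in deleted pools and 5341 ± 957 in control pools (-0.24 ± 0.15, adjusted p = 0.56, limma), and -0.12 without control replicate 3. Gss, which completes the tripeptide, averaged 4067 ± 485 in deleted pools and 4011 ± 248 in control pools (0.01 ± 0.13). Slc7a11, the cystine importer, averaged 634 ± 60.9 in deleted pools and 824 ± 245 in control pools (-0.33 ± 0.26, interval -0.91 to 0.25). It had -0.20 without control replicate 3, and its other probe set had 0.30.

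The reductases lay lowest of the role groups, with all 4 genes below 0 and a median log2 fold change of -0.52, which was -0.25 without control replicate 3. Gsr, glutathione reductase, had signals of 3228, 3298 and 2883 in the deleted pools, against 4601 (control 1), 4060.4 (control 2) and 5730.0 (control 3). All 3 deleted pools lay below the lowest control, at 0.659 of the control level on the fitted scale (log2 -0.60 ± 0.15, interval -0.93 to -0.27, adjusted p = 0.16, limma). The adjusted p ran from 0.030 to 0.47 as each pool was left out, passing the threshold without control replicate 2, and was 0.17 without control replicate 3 (log2 -0.47). A dimmer Gsr probe set had 1990 (deleted 1), 2111 (deleted 2) and 2315 (deleted 3), against 2066, 1638 and 2309 in the control pools. The groups overlapped there and the sign was the other way (0.11 ± 0.16, adjusted p = 0.88, limma), so the lower level rests on 1 of the 2 probe sets of Gsr.

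Txnrd1, cytosolic thioredoxin reductase, had 24581, 23327 and 22612 in the deleted pools, against 31322, 24505 and 41338 in the control pools. The deleted pools lay close together, deleted pool 1 overlapped control replicate 2 by a small margin, and control replicate 3 was the highest (log2 -0.43 ± 0.17, adjusted p = 0.37, limma). Its value without control replicate 3 was -0.24, and its other probe sets had -0.26 and -0.27. Srxn1, the sulfiredoxin that restores overoxidised peroxiredoxins, was singled out after its values were seen, as the largest difference in the set: 7063, 6345 and 5916 in the deleted pools, against 9307, 6402 and 16380 in the control pools. Control replicate 3 had by far the highest signal and control replicate 2 lay within the range of the deleted pools (log2 -0.63 ± 0.28, interval -1.26 to 0.01, adjusted p = 0.42, limma). The difference was -0.26 without control replicate 3, and the other 3 probe sets of Srxn1 had -0.73, -0.79 and -0.35. Txn1, thioredoxin itself, had 49399, 53557 and 55121 in the deleted pools, against 53140 (control 1), 55261 (control 2) and 62845 (control 3). The groups overlapped and the difference was small (-0.11 ± 0.11, interval -0.37 to 0.14).

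**Figure D2:**
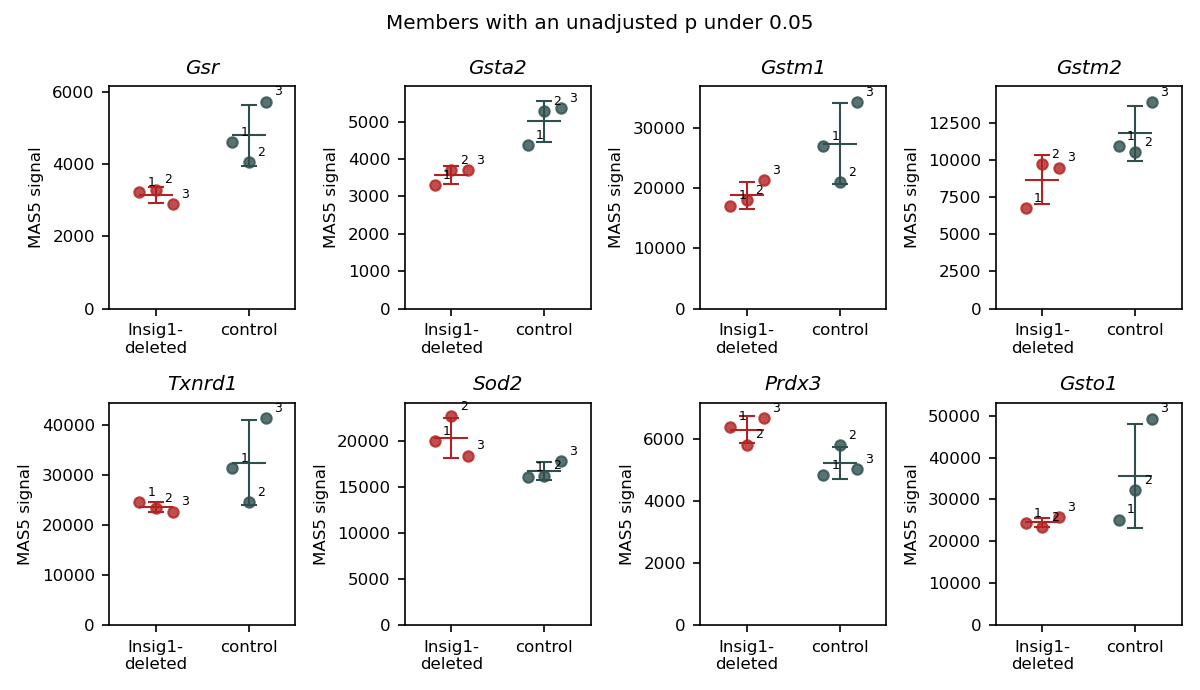
MAS5 signal (vertical axis, linear from 0) of the 8 genes with an unadjusted p under 0.05, in the 3 deleted pools and the 3 control pools; each point is a pool. Control replicate 3 is the highest point for Gsr, Txnrd1, Gstm1, Gstm2, Gsta2 and Gsto1, and for Sod2 and Prdx3 every deleted pool lies above every control pool.

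Peroxiredoxins were the group that lay highest, with 3 of 3 tested genes above 0 (2 of 3 with quantile normalisation) and a median of 0.23. Without control replicate 3 their median was 0.16 with 2 of 3 above 0, Prdx2 being at -0.05. Prdx3, the mitochondrial peroxiredoxin, had 6388, 5807 and 6662 in the deleted pools, against 4832, 5787 and 5011 in the control pools. Every deleted pool lay above every control pool, deleted pool 2 only just above control replicate 2 (log2 0.27 ± 0.12, interval 0.01 to 0.54, adjusted p = 0.40, limma). Prdx4, the peroxiredoxin of the endoplasmic reticulum, averaged 6771 ± 287 in deleted pools and 5795 ± 493 in control pools without overlap (0.23 ± 0.11, adjusted p = 0.45, limma), and its other probe sets had -0.03 and -0.11. Prdx2, a cytosolic member, had 10712, 12556 and 11418 in the deleted pools, against 11871, 12019 and 10286 in the control pools. The groups overlapped widely (0.02 ± 0.11, interval -0.24 to 0.28). Prdx1 was not counted in the group, because its probe sets also name another gene model, and these had -0.20 to 0.01. Prdx5 and Prdx6 were not analysed here.

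Of 8 glutathione peroxidases, 7 were tested, 3 lay above 0 and 4 below, and none reached an unadjusted p under 0.05. Gpx4, which reduces lipid hydroperoxides in membranes and restrains ferroptosis, had 31623, 37750.0 and 36025 in the deleted pools, against 31725 (control 1), 33866 (control 2) and 29984 (control 3). Deleted pools 2 and 3 exceeded all controls and deleted pool 1 did not (log2 0.14 ± 0.11, interval -0.11 to 0.39, adjusted p = 0.68, limma). Gpx1, the main cytosolic enzyme, averaged 31192 ± 2156 in deleted pools and 30205 ± 2593 in control pools (0.05 ± 0.11). Gpx2, an epithelial member and NRF2 target, averaged 5170 ± 625 in deleted pools and 6279 ± 956 in control pools (-0.28 ± 0.15, adjusted p = 0.49, limma), and -0.16 without control replicate 3. Gpx3, the secreted form, had -0.09 ± 0.21, Gpx5 0.04 ± 0.25, Gpx7 -0.13 ± 0.16 and Gpx8 -0.14 ± 0.11.

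Among catalase and the superoxide dismutases, the mitochondrial enzyme Sod2 lay higher. Its brightest probe set had 19991, 22710 and 18436 in the deleted pools, against 16087, 16261 and 17862 in the control pools. Every deleted pool lay above every control pool (log2 0.28 ± 0.11, interval 0.02 to 0.54, adjusted p = 0.37, limma), and the difference was 0.33 without control replicate 3. Cat, catalase, had 40772, 39366 and 47900 in the deleted pools, against 43714, 59133 and 42534 in the control pools. The groups overlapped, with control replicate 2 the highest (-0.17 ± 0.15, interval -0.51 to 0.17). Sod1, the cytosolic dismutase, averaged 38659 ± 4002 in deleted pools and 41776 ± 7002 in control pools (-0.10 ± 0.15), where its other 3 probe sets had 0.09, 0.32 and 0.08. Sod3, the extracellular form, averaged 1006.5 ± 440 in deleted pools and 1001 ± 48.1 in control pools (-0.09 ± 0.30).

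Of the 76 probe sets of the set past the filter, 1 of Sod2, the next after its 2 brightest, passed the adjusted threshold in a fit over all 27022 probe sets, of which 0.315% were called higher and 0.0074% lower. It is described here after its values were seen. Its signals were 4732 (deleted 1), 5452 (deleted 2) and 5046 (deleted 3), against 2133, 2808 and 2584 in the control pools. All deleted pools lay far above all controls, with a wide gap between the groups (log2 1.02 ± 0.14, adjusted p = 0.018, limma). The adjusted p missed the threshold without any one of the deleted pools (0.088 without deleted pool 1, 0.17 without deleted pool 2 and 0.12 without deleted pool 3), without control replicate 1 (0.066) and without an intensity trend (0.12), while the log2 fold change stayed between 0.91 and 1.11. The other Sod2 probe sets had 0.28, 0.29 and 0.38, so all 4 lay above 0 and they differed in size. The sources used here do not say which part of the transcript each one reads.

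**Figure D3:**
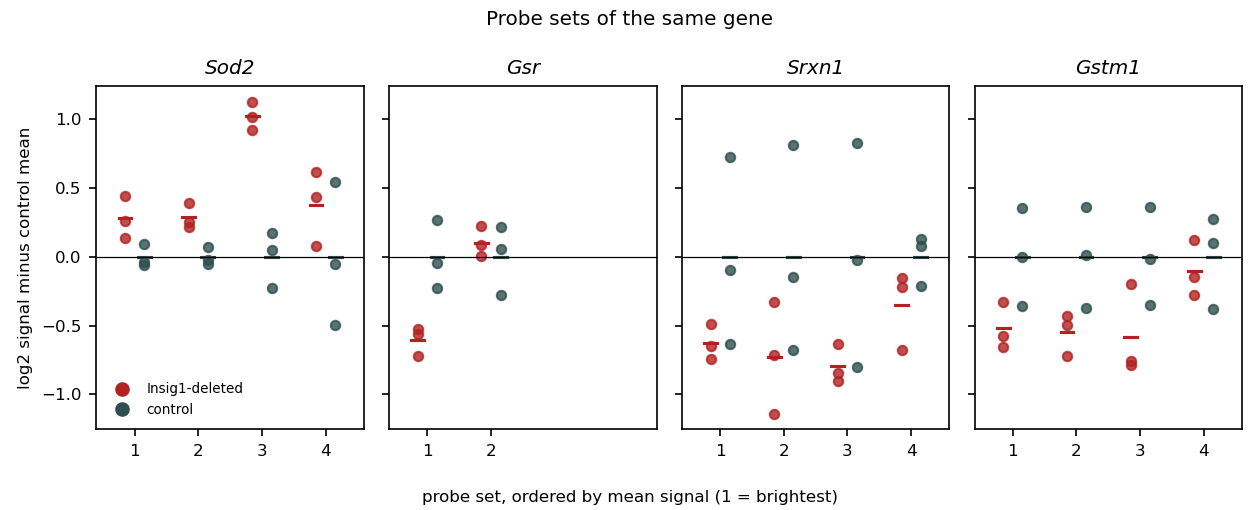
Log2 signal minus the control mean (vertical axis) in each pool for the probe sets of genes with several, ordered along the horizontal axis from the brightest. For Sod2 probe set 3 separates deleted from control pools by 1.02, and for Gsr the brightest and the dimmer probe set point in opposite directions (-0.60 and 0.11).

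Probe sets of one gene did not always share a sign. Of 20 genes with at least 2 probe sets past the filter, 6 had values of both signs: Gclc, Gsr, Gss, Prdx4, Slc7a11 and Sod1. Both signs were found in 45.8% of the 5747 such genes on the array, a larger share than 6 of 20, and for Gclc and Gss the value of the brightest probe set was close to 0 (-0.01 and 0.01). Over the 76 probe sets, 50 (65.8%) lay below 0 and 26 above, where 53.9% of all 27022 probe sets lay below 0.

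The NRF2-inducible carbonyl and quinone reductases both lay below 0 (median -0.33, and -0.16 without control replicate 3). Cbr3, a carbonyl reductase, had 2692, 3745 and 3767 in the deleted pools, against 3686, 3797 and 4881 in the control pools. Deleted pool 1 was the lowest, control replicate 3 the highest, and the groups overlapped (-0.28 ± 0.17, adjusted p = 0.56, limma), with -0.15 without control replicate 3. Nqo1, the quinone reductase most often used as an NRF2 readout, averaged 1066 ± 228 in deleted pools and 1386 ± 354 in control pools (-0.37 ± 0.23, interval -0.88 to 0.14, adjusted p = 0.56, limma), and -0.17 without control replicate 3.

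The GST families, which carry out conjugation, contributed 20 of the 46 genes, and 16 of the 20 lay below 0 with a median of -0.13. This was 80.0% of them, where 50.9% of all genes lay below 0, and with a common median it was 13 of 20 (65.0%), where 37.6% of all genes did. Alpha GSTs had 3 of 3 below 0 and the lowest median of the GST families, at -0.39. Without control replicate 3 it was -0.22, and that of omega GSTs was lower at -0.23. Gsta2 had a mean of 3570 ± 231 from deleted signals of 3303, 3705 and 3702, against control signals of 4368, 5274 and 5366 with a mean of 5003 ± 551. The deleted pools all lay below the lowest control (log2 -0.48 ± 0.13, interval -0.77 to -0.20, adjusted p = 0.19, limma), and the difference ran from -0.58 to -0.43 as each pool was left out. Gsta4, which conjugates the lipid peroxidation product 4-hydroxynonenal, had 11959, 15621 and 15657 in the deleted pools, against 15642, 15274 and 19192 in the control pools. Deleted pool 1 was the lowest and deleted pools 2 and 3 lay among the controls (-0.22 ± 0.14, adjusted p = 0.60, limma), and the value was -0.11 without control replicate 3. Gsta3 averaged 3767 ± 947 in deleted pools and 4912 ± 1099 in control pools (-0.39 ± 0.21, adjusted p = 0.51, limma), and -0.22 without control replicate 3.

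Mu GSTs had 6 of 6 tested genes below 0 with a median of -0.19, and 5 of 6 with quantile normalisation or a common median. Without control replicate 3 their median was -0.09 with 5 of 6 below 0, Gstm7 being at 0.23. Gstm1 had 17101, 18075 and 21422 in the deleted pools, against 26968, 21020 and 34370 in the control pools. Deleted pool 3 overlapped control replicate 2 and control replicate 3 was the highest (log2 -0.52 ± 0.18, interval -0.92 to -0.12, adjusted p = 0.30, limma). The value of Gstm1 was -0.34 without control replicate 3, the adjusted p was 0.042 without control replicate 2, and its other 3 probe sets had -0.55, -0.58 and -0.10. Gstm2 had 6768, 9722 and 9468 in the deleted pools, against 10907, 10538 and 13893 in the control pools. Here the groups did not overlap, with deleted pool 1 well below the rest (-0.45 ± 0.17, adjusted p = 0.34, limma), and the difference was -0.33 without control replicate 3. Gstm3 had -0.12, Gstm4 -0.03, Gstm5 -0.25 and Gstm7 -0.13, the last with a second probe set at -0.69. Mu GST genes are close relatives that lie side by side on chromosome 3, and how far their probe sets hybridise to each other was not tested.

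Omega GSTs, which reduce disulfides, had both genes below 0 (median -0.31). Gsto1 had 24355, 23389.9 and 25742 in the deleted pools, against 25159, 32161 and 49307 in the control pools. Control replicate 3 was by far the highest and control replicate 1 lay within the range of the deleted pools (log2 -0.48 ± 0.21, adjusted p = 0.41, limma). Without control replicate 3 the difference of Gsto1 was -0.22, and its dimmer probe set had -0.68 ± 0.18 (12360.0 ± 1077 in deleted pools and 20222 ± 5220 in control pools, adjusted p = 0.25, limma). Gsto2 had -0.15 ± 0.22.

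The remaining families held no gene with an unadjusted p under 0.05. Theta GSTs had 3 of 3 tested genes above 0 (median 0.15), which became 1 of 3 without control replicate 3. Gstt1, the brightest of them, had 10653, 11169 and 9771 in the deleted pools, against 9009, 12345 and 7577 in the control pools. The controls spread more widely than the deleted pools and enclosed them (0.15 ± 0.17, interval -0.23 to 0.54), and Gstt2 had 0.13 and Gstt3 0.22. Gstp1, a pi GST, had 34513, 42285 and 47100.2 in the deleted pools, against 41707, 44421 and 48453 in the control pools. Only deleted pool 1 lay below the controls (-0.13 ± 0.14, interval -0.43 to 0.18), and Gstp3 had 0.27 ± 0.21 (0.05 without control replicate 3). Gstk1, the kappa GST of mitochondria and peroxisomes, had 9712, 11225 and 10908 in the deleted pools, against 11266, 11370 and 10877 in the control pools. Deleted pool 1 was again the lowest (-0.08 ± 0.10), and the difference was 0.00 with a common median. Mgst1, a microsomal GST, had 62169, 69675 and 73000.3 in the deleted pools, against 62979, 78997 and 78668 in the control pools. The groups overlapped (-0.10 ± 0.13, interval -0.40 to 0.19), and Mgst2 had -0.07 and Mgst3 -0.17.

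Gpx6, Gstm6 and Gstt4 lay below the filter, with signals of 25.1 to 167.1 in deleted pools and 42.1 to 270.3 in control pools, and they entered no count of genes tested.

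Role groups differed in which pools lay at the ends. Averaged over the 46 genes, the deviation from the control mean was -0.23, -0.07 and -0.08 in the deleted pools, against -0.07, -0.03 and 0.10 in the control pools. The reductases had -0.40, -0.42 and -0.50 in the deleted pools, against -0.06, -0.32 and 0.38 in the control pools. Their deleted pools lay together below all controls, whereas mu GSTs had -0.43, -0.16 and -0.15 in the deleted pools, against -0.23, -0.07 and 0.30 in the control pools. In mu GSTs only deleted pool 1 lay below the lowest control. Alpha GSTs had -0.63, -0.20 and -0.27 in the deleted pools, against -0.12, -0.10 and 0.22 in the control pools. Their deleted pools lay below all controls, with deleted pool 1 the lowest. Control replicate 3 was the lowest pool in theta GSTs (-0.35), pi GSTs (-0.17) and peroxiredoxins (-0.11), and deleted pool 3 was the lowest in the reductases and in omega GSTs (-0.40).

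**Figure D4:**
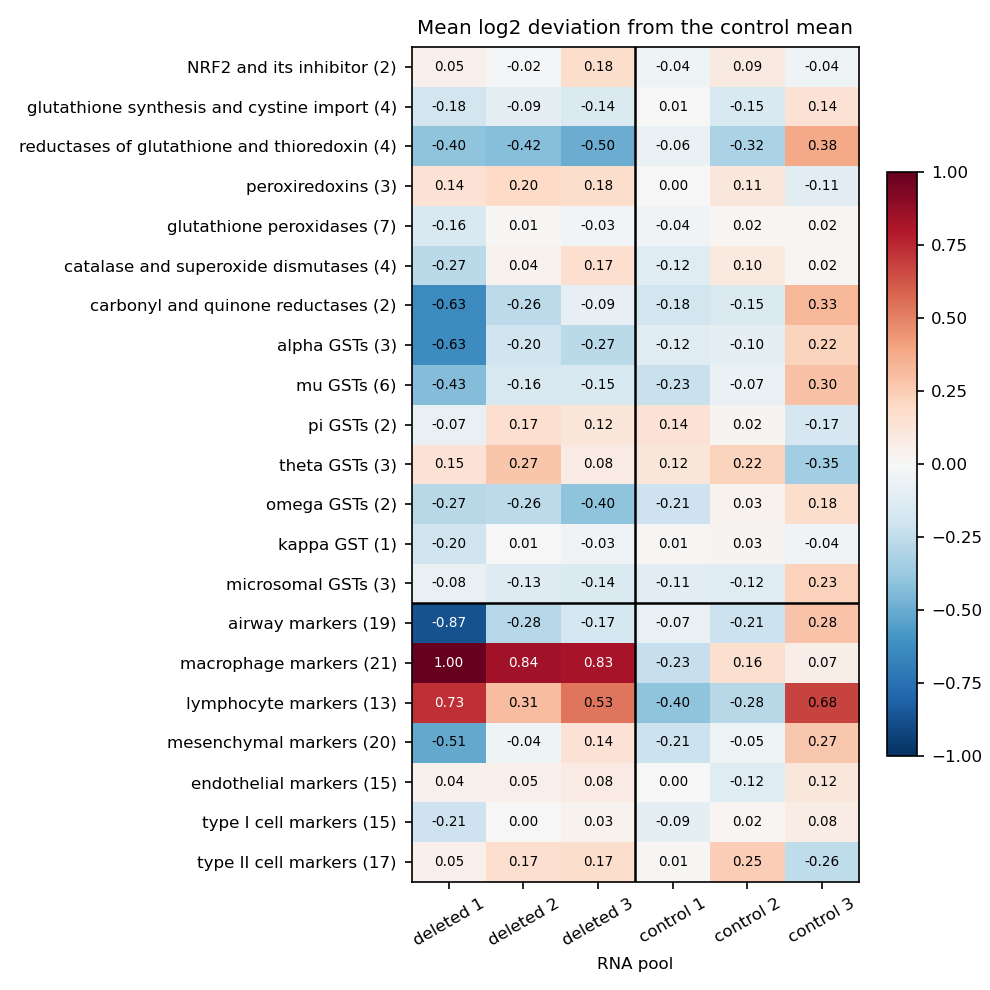
Mean log2 deviation from the control mean (colour) for each role group and marker list (rows, with the number of genes tested) in the 3 deleted and the 3 control pools (columns). Deleted pool 1 is low and control replicate 3 high in the alpha and mu GSTs and in the airway (-0.87 and 0.28), mesenchymal (-0.51 and 0.27) and type I cell (-0.21 and 0.08) lists. The macrophage list is at 0.83 to 0.9959 in the deleted pools.

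Some markers of other lung cells differed between the groups in the same arrays. Of 20 airway epithelial markers, 19 were tested, 2 fell and none rose, where 0.0232% of all genes fell and 0.625% rose. All 19 lay below 0, where 50.9% of all genes did, with a median of -0.40 (-0.30 and 17 of 19 without control replicate 3). The 2 that fell were Ccdc153, a gene of ciliated cells (-1.18 ± 0.16, adjusted p = 0.014, limma), and Sox2, the airway transcription factor (-0.83 ± 0.13, adjusted p = 0.030, limma). Trp63, of basal cells, lay below the filter, and no marker was at 0. No airway marker was called without an intensity trend or without any one of the deleted pools, 1 without control replicate 1 and 5 without control replicate 2. Their summed signal ran from 551129 to 756779 in deleted pools and from 691074 to 928913 in control pools. By pool the airway deviation was -0.87, -0.28 and -0.17 in the deleted pools, against -0.07, -0.21 and 0.28 in the control pools. Its extremes were deleted pool 1 and control replicate 3, the pools at the ends of the alpha and mu GSTs. The same pools were at the ends of the mesenchymal marker list (-0.51 and 0.27) and of the type I cell marker list (-0.21 and 0.08). The part of any of these cell types in the GST values was not tested. In such bulk isolates, fewer cells of a type and less RNA per cell cannot be told apart.

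Most macrophage markers went the other way. Of 24 listed, 21 were tested, 8 rose and none fell, where 0.625% of all genes rose and 0.0232% fell. Of the 21, 19 lay above 0 and 2 below it, Lyz2 (-0.09) and Pparg (-0.07), with a median of 0.88. Trem2 lay below the filter. The summed signal of the 21 markers ran from 283339 to 294245 in deleted pools and from 176614 to 229483 in control pools. Those called included Gpnmb (1.86), Cd68 (0.9996), Marco (2.26) and Mpeg1 (1.37). The 8 became 13 with array weights, 2 with no intensity trend, 1, 1 and 4 without deleted pools 1, 2 and 3, and 5 without control replicate 1. The part of macrophages in the Sod2 and peroxiredoxin values was not tested.

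The remaining lists were read in the same way. Of 17 lymphocyte markers, 13 were tested and none passed, with a median of 0.40 and sums from 25911 to 30136 in deleted pools and from 12961 to 27614 in control pools. Ccr7 (log2 fold change 1.27) and Cd2 (log2 fold change 0.84) had the smallest p of them. Without control replicate 3 the lymphocyte median was 0.98 and 4 were higher past the threshold, where 1.24% of all genes were. With array weights 3 lymphocyte markers were higher past it, and with the pool number as a block 1 was. Of 20 mesenchymal markers none passed (median -0.13, where Fn1 had 0.48 and Tcf21 -0.49), with sums from 71387 to 122203 in deleted pools and from 90078 to 129217 in control pools. The 15 endothelial markers held 1 that rose, Car4 (0.89, adjusted p = 0.030, limma), at a median of -0.03, where 0.625% of all genes rose. No endothelial marker was called without an intensity trend, without any one of the deleted pools or without control replicate 1, and 2 without control replicate 2. The 15 type I cell markers held none (median 0.00), and 1 was lower past the threshold without control replicate 2. Cyp2b10 (log2 fold change -0.91) and Limch1 (log2 fold change -0.40) had the smallest p of the type I list. Most of that list went the other way, with 9 markers above 0, Ager (0.61) among them, and 6 below. Genes of cholesterol synthesis, targets of SREBP2, rose in 15 of 18 tested (21 listed), where 0.625% of all genes rose. Their median was 1.30, and those called included Lss (2.22), Sqle (1.08), Fdps (1.71) and Msmo1 (1.30). The 15 became 6 without an intensity trend and 7, 4 and 9 without deleted pools 1, 2 and 3.

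Other genes of glutathione metabolism and the NRF2 response were read from a list of 54, of which 51 were tested. None passed the adjusted threshold by limma. Unadjusted p-values under 0.05 belonged to 5 higher genes (9.80%, where 6.05% of all genes were) and 3 lower genes (5.88%, where 6.02% of all genes were). The median was 0.05. Me1, the malic enzyme that makes cytosolic NADPH and is a target of both NRF2 and SREBP1, had 13125, 13128 and 11826 in the deleted pools, against 9369, 10292 and 7886 in the control pools. All deleted pools lay above all controls (0.47 ± 0.12, adjusted p = 0.19, limma). Blvrb, biliverdin reductase B, had 1761, 2217 and 1958 in the deleted pools, against 1437, 1326 and 1271 in the control pools. Its groups did not overlap either (0.55 ± 0.15, adjusted p = 0.19, limma).

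Of 11 genes listed for the supply of NADPH, the electron source of both reductase systems, 9 were tested and none passed, with a median of 0.13. At an unadjusted p under 0.05, 1 was higher (11.1%), where 12.1% of all genes lay under it, 6.05% higher. Nadk, the NAD kinase that makes cytosolic NADP, had 9529, 10094 and 9316 in the deleted pools, against 7672, 7058 and 7843 in the control pools. The groups lay well apart (0.36 ± 0.10, adjusted p = 0.22, limma). Me2, a mitochondrial malic enzyme, had 0.25 ± 0.18 with overlapping groups.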

How the data were processed

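Total RNA of 6 pools (3 per genotype) was labelled with biotin and put on Affymetrix arrays, as per the labels' protocols. The table deposited holds linear signal intensities per probe set, made with MAS5 per the submitters' processing notes; as the values show, each array has a trimmed mean of 1500. Since MAS5 works array by array, arrays may still differ in shape, and dim probe sets have noisy ratios. Detection calls were not used here. Of 45101 probe sets, 34945 named 1 gene in the platform annotation, 932 named several, 9160 had no gene name here and 64 were controls.

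Signals were floored at 1 before log2. Probe sets with a mean log2 signal below the 40th percentile (log2 8.08, signal 271) were left out, which kept 27022, and the brightest probe set naming a gene alone represented it (12952 genes). Genotypes were compared over all of these genes with limma 3.58.1 in R 4.3.3 (lmFit and trended eBayes; two-sided; Benjamini-Hochberg; threshold 0.05). An exact permutation test of 3 pools against 3 cannot go below p = 0.1. The number of arrays limits the precision. Steps were tested on simulated data with known changes. The fit called 2 of 50 genes changed by 0.5 log2 and 26 of 50 changed by 1 log2, so most small changes would not be called. Alternatives were array weights, quantile normalisation, an added 16 before log2, a common median, eBayes without a trend, a filter set at percentile 60 or dropped, a block for pool number, other probe set summaries, and each pool left out.

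The genes of the set and all lists were chosen with earlier results of these data known, and no set test was made. Pool values are given for genes past the adjusted threshold, genes with an unadjusted p under 0.05 and the brightest gene of each of 14 role groups; from every other list, up to 4 genes past the threshold, or the 2 with the smallest p, are named. The airway and NRF2 lists share Aldh1a1 and Cbr2. Promoter windows came from RefSeq (GRCm38.p6). Prdx5 and Prdx6 were not analysed here. Figures were drawn with matplotlib 3.10.9.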

Additional observations from a re-analysis of the deposited data

How the results depend on the processing

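The 46 genes tested held no call at an adjusted p under 0.05 under 15 of the 16 alternatives; without control replicate 2 there were 2 lower, Gsr (adjusted p = 0.030) and Gstm1 (0.042), so the range with each pool left out was 0 to 2. Of 732 values of single genes under these alternatives, 2 passed the threshold and 45 changed sign, in 20 genes; among the 8 genes at an unadjusted p under 0.05, the 1 change of sign was Gsr on its second probe set (0.11). The 2 genes higher at an unadjusted p under 0.05 became 1 with quantile normalisation, 1 on the second probe set, 1 with the pool number as a replicate block, 0 without an intensity trend and 0 to 3 with each pool left out (0 without deleted pool 1 or 2). The 6 lower became 2 to 9, with 2 without deleted pool 1, 3 without control replicate 3 and 9 without control replicate 2. The 3 lower genes without overlap became 8 with quantile normalisation, 5 on the second probe set and 5 to 11 with each pool left out, and the 3 higher became 3 to 6. Leaving out control replicate 3 also raised the share of all genes without overlap, from 7.9% to 13.0% lower and from 9.2% to 15.1% higher. That share under the other alternatives is not given here. The median of -0.11 ran from -0.17 to -0.06 with each pool left out. Among all genes, 81 higher and 3 lower became 29 and 0 without an intensity trend and 186 and 73 with array weights, and ran over 15 to 184 higher and 0 to 293 lower with each pool left out, where the high ends came without control replicate 2. Without deleted pools 1, 2 and 3 the higher genes numbered 23, 15 and 31 and no gene was lower; without control replicates 1 and 3 there were 43 and 160 higher and 2 and 12 lower. Same-numbered pools correlated at 0.107, 0.054 and 0.133 in their deviations from the group means, and pools of different number at -0.134 to 0.019. Each pool thus correlated best with its own number. The sources used here do not say that the numbers pair the pools, so the main fit did not pair them. With the number as a replicate block 21 of all genes were lower. Without an intensity trend the lists of other cell types and of sterol synthesis had 0 airway calls in place of 2, 2 macrophage calls in place of 8, 0 endothelial calls in place of 1 and 6 cholesterol calls in place of 15. The cause of these shifts was not tested. MAS5 signals near the filter are too noisy to rank small changes, and 2 groups of 3 arrays leave standard errors of 0.10 to 0.34.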

Other observations

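Prdx1, a cytosolic peroxiredoxin and NRF2 target, was read only by 5 probe sets that the annotation shares with the gene model Gm21399, so it was not counted in the set. Their log2 fold changes (deleted minus control) ran from -0.20 to 0.01. The brightest had signals of 76291, 85089 and 87674 in the deleted pools, against 73134, 90795 and 93141 in the control pools, and the groups overlapped.

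One probe set named Gsta1, Gsta2 and Gm3776 together. It had 1538, 1371 and 1750 in the deleted pools, against 2438, 2204 and 2413 in the control pools, without overlap (log2 -0.60 ± 0.15, adjusted p = 0.21, limma). Which of the 3 genes the signal came from cannot be told apart.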
